A study of Mus musculus with 48 samples.

Results

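Fmo1, Fmo2, Fmo4 and Fmo5 encode flavin-containing monooxygenases, and their transcripts were followed through the livers of 48 mice. The genes were taken by name from a deposited table of 49315 genes, which gave 4 genes. All 4 reached 1 TPM, a transcript level corrected for gene length and library total, in every one of the 48 libraries and were among the 15820 genes tested. Every animal was of the inbred strain C57BL/6J, and poly(A) RNA was sequenced from whole liver. The 8 groups of 6 livers were males on a high-fat diet (HFD) given the mixture, males on HFD given vehicle, males on a low-fat diet (LFD) given the mixture, males on LFD given vehicle, and the same 4 groups in females. The mixture was a weekly dose of 3 dioxin-like compounds, with TCDD at 10 ng/kg, the chlorinated furan PeCDF at 80 ng/kg and the biphenyl PCB126 at 140 ng/kg, and it ran for 12 weeks. The animals' age, the make-up of the diets and the route of dosing were not stated.

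Flavin-containing monooxygenases sit in the endoplasmic reticulum, where they hold FAD and use NADPH and oxygen to oxidise soft nitrogen and sulphur atoms in drugs, food constituents and small metabolites. FMO1 takes many amines and sulphides and also oxidises hypotaurine to taurine. FMO2 is best known as the lung enzyme of many mammals, and FMO4 is the least characterised of the group. FMO5 differs in its chemistry, since it oxidises ketones in the manner of a Baeyer-Villiger enzyme, and mice that lack it are lean with low plasma cholesterol. Mouse liver is known for higher Fmo1 in females than in males.

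The genes are similar enough that sequences are worth seeing before their levels. In the GENCODE M21 annotation of GRCm38, Fmo4 lies on the minus strand of chr1:162793188-162813972, Fmo1 on the minus strand of chr1:162829561-162866610 and Fmo2 on the minus strand of chr1:162874317-162898726. These 3 lie close together, while Fmo5 is on the plus strand of chr3:97628804-97655282. The coding starts of the annotated Fmo2, Fmo4 and Fmo5 transcripts run from the start codon, and the capitals mark the 3 glycine codons of the motif that binds FAD.
Fmo2: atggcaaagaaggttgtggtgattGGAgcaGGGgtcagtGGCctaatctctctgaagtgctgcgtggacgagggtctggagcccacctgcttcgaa
Fmo4: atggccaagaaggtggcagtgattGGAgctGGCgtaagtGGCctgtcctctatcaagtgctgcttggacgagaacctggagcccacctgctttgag
Fmo5: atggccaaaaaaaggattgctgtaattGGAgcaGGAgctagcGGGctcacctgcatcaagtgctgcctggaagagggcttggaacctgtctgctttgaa
From the first capital onward, Fmo2 and Fmo4 shared 58 of 72 bases, and Fmo5 shared 52 with each of them. Over the whole coding region, identity among these 3 genes was 60.5% to 62.6%, and the proteins have 532 (Fmo1), 535 (Fmo2), 560 (Fmo4) and 533 (Fmo5) residues. No pair of the 3 shared a run of 30 bases in any annotated transcript, and no annotated gene overlaps any of the 4.

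Windows of 250 bases before the transcript starts listed by RefSeq were searched on both strands for GCGTG, the core of the aryl hydrocarbon receptor element, and for TTCNNNGAA, the STAT5 element. The RefSeq table on GRCm38.p6 held 2 windows for Fmo2 and 1 each for Fmo4 and Fmo5. These starts differ from the GENCODE gene ends given above, and all but 1 of the windows, the first of Fmo2, lie wholly or partly inside the GENCODE gene. Neither motif was found in these 4 windows. Among 32851 promoters of the same length, 28.2% held the first motif and 7.02% the second.

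Fmo5 was the most abundant of the 4 in each of the 8 groups, followed by Fmo1. TPM corrects reads for gene length and scales each library to the same total, so levels can be set side by side between genes. Over the 48 livers, Fmo5 averaged 464.8 TPM and ranked 265th of 49315 genes, and Fmo1 averaged 120.3 TPM and ranked 979th. Fmo2 averaged 26.15 TPM and Fmo4 averaged 9.556 TPM. Fmo2 had the widest span, with 63.88 TPM in its highest liver and 2.24 TPM in its lowest, a ratio of 28.5. The same ratio was 5.9 for Fmo4, 4.2 for Fmo5 and 3.26 for Fmo1.

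**Figure D1:**
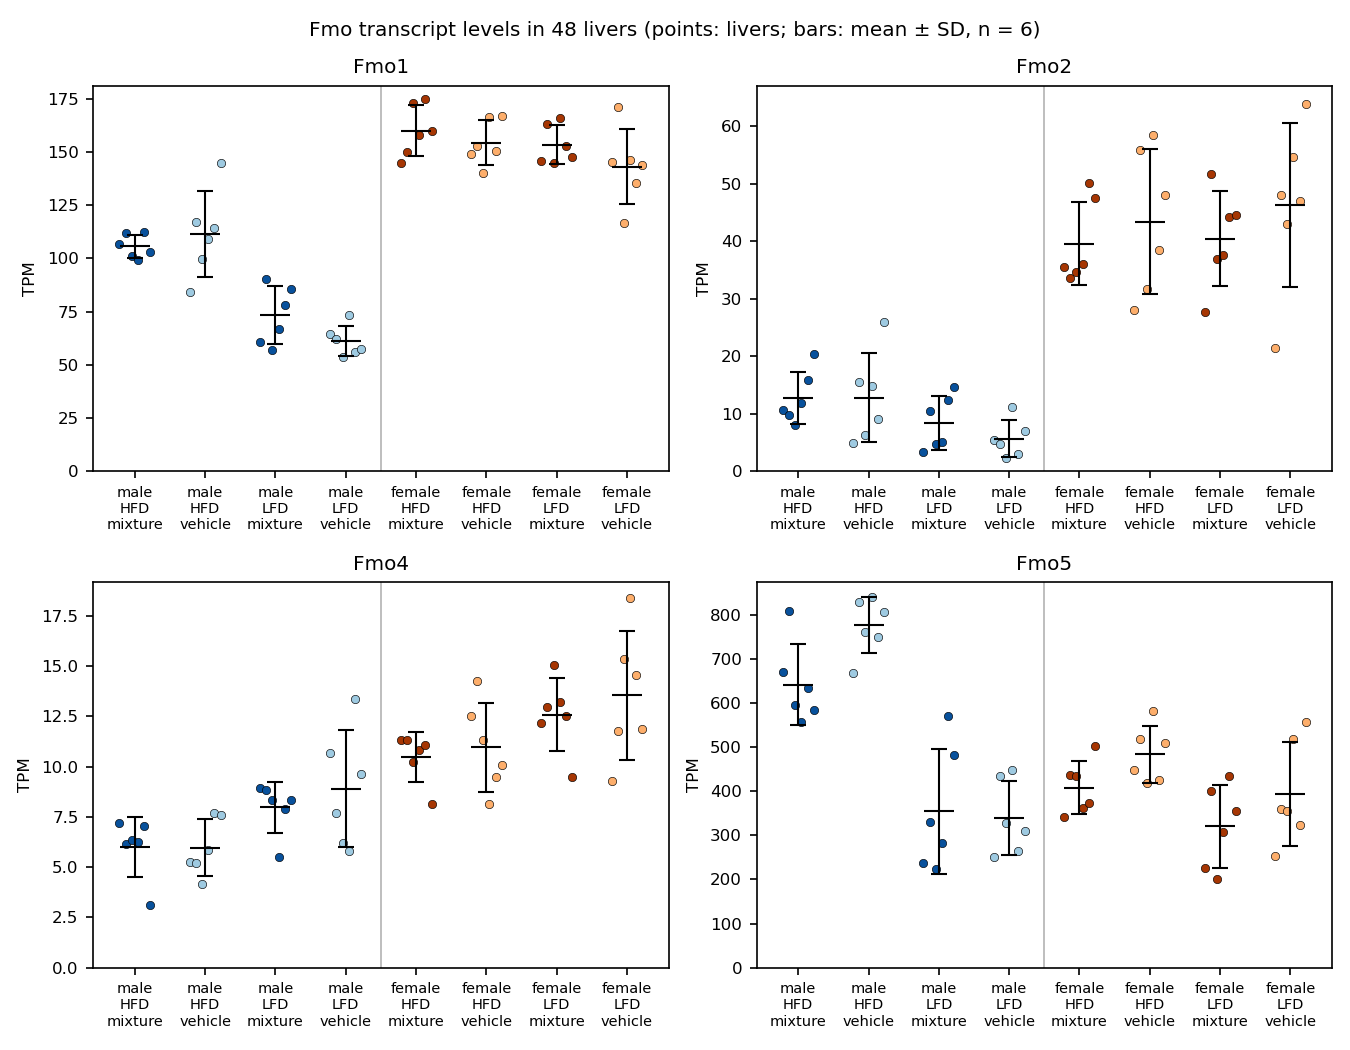
Level of each Fmo transcript (TPM, linear axis starting at 0) in the 48 livers, by sex, diet and exposure. Each point is a liver and bars give the mean ± SD of 6 livers: Fmo1 and Fmo2 sit higher in the female groups, and Fmo5 is highest in the HFD males.

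The 4 genes ordered the groups differently. For Fmo1 and Fmo2, the 4 female groups came above the 4 male groups. Fmo1 averaged 61.1 ± 7.20 TPM in its lowest group, the vehicle males on LFD, and 160 ± 12.1 TPM in its highest, the mixture females on HFD (SD, n = 6 each). In that order, 2 of the 7 steps between neighbouring groups exceeded the larger of the 2 SDs, the step between the sexes and the step between HFD and LFD males. For Fmo2, 1 of 7 steps exceeded it, again the step between the sexes. Fmo4 also ran from the female to the male groups, and within each sex LFD came above HFD. For Fmo4, 1 of 7 steps exceeded the larger SD, the one that separated LFD from HFD males. Fmo5 gave another order, with the 2 HFD male groups on top and the mixture females on LFD lowest, and 3 of its 7 steps exceeded the larger SD.

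Fmo5 made up most of the summed level of the 4 genes in each group, and Fmo1 the next largest share. The sum was 766 ± 94.5 TPM in mixture males on HFD and 906.7 ± 85.3 TPM in vehicle males on HFD, against 443.9 ± 155 TPM and 414.9 ± 87.6 TPM in mixture and vehicle males on LFD (SD, n = 6 each). Female sums lay between 527 TPM (LFD mixture) and 692 TPM (HFD vehicle). Fmo5 made up 78.8% to 85.7% of the summed level in the male groups and 59.8% to 69.8% in the female groups. Fmo2 made up 1.32% to 1.79% in males and 6.18% to 7.71% in females.

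**Figure D2:**
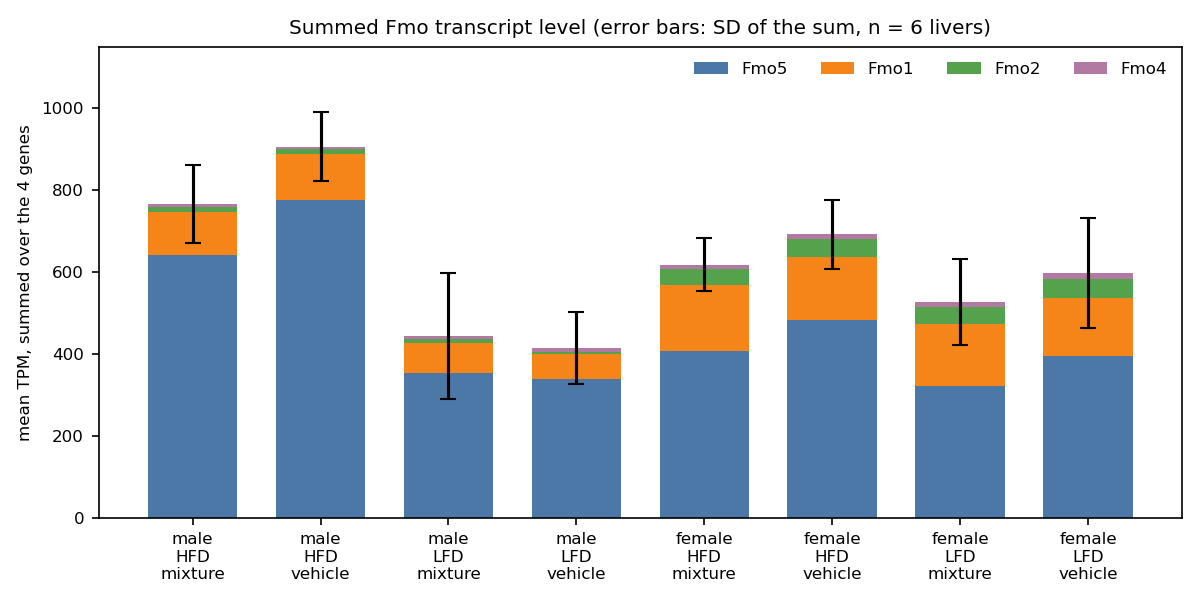
Mean TPM of the 4 genes stacked by group, with the SD of the summed level over 6 livers as error bars. The HFD male groups are the tallest, at 766 and 906.7 TPM, and nearly all of each male bar is Fmo5 and Fmo1.

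The liver label held against hepatocyte markers, with the 7 listed genes (albumin, transthyretin and others) summing to 61260 TPM or more in every library. Among markers of other tissues, the 16 skeletal muscle genes summed to 22767 TPM in replicate 6 of the mixture males on HFD, 8767 TPM in replicate 3 of the vehicle females on LFD and 1862 TPM in replicate 3 of the mixture females on LFD. The next highest library held 748 TPM. The last of the 3 also held 1664 TPM of 7 adrenal cortex markers. Replicate 6 of the mixture males on LFD, which is not among the 3, held 92.55 TPM of the adrenal markers, against a group median of 3.717 TPM. Results are given with all libraries, and leaving out the 3 with muscle transcripts changed no call on a Fmo gene. On HFD, 5 or 6 of the 7 hepatocyte markers were called lower in each of the 4 diet comparisons. Of all genes, 6.92% (mixture males), 5.82% (vehicle males), 7.74% (mixture females) and 13.5% (vehicle females) were called lower. In males, 8 of 9 (mixture) and 7 of 9 (vehicle) stellate cell and fibroblast markers and 4 of 6 and 3 of 6 macrophage markers were called higher. So were 3 of 4 and 1 of 4 cholangiocyte markers tested and 3 of 6 and 2 of 6 endothelial markers. Of all genes, 31.7% and 25.6% were called higher there, and 1 of 6 endothelial markers was lower in mixture males. In vehicle females, 6 of 6 endothelial markers were called lower on HFD. The 6 adipocyte markers summed to a median of 42.58 TPM (mixture) and 38.83 TPM (vehicle) in HFD males, against 2.917 and 1.367 TPM in LFD males. Their highest sum was 341.4 TPM, in replicate 3 of the mixture females on LFD. Replicate 1 of the vehicle males on HFD held 330.9 TPM. Leaving that library out changed no Fmo call between diets in vehicle males. In bulk tissue, fewer cells of a type and less RNA per cell cannot be told apart, and the part of these markers in the Fmo results was not tested.

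In vehicle males, all 4 genes differed between the diets with all groups and libraries in the fit. For Fmo2 and Fmo4 this did not hold in every other fit given below. Fmo5, Fmo1 and Fmo2 rose on HFD, and Fmo4 fell. Each call is a limma test with p-values adjusted over all genes tested and a threshold of 0.05. By that rule 4 of 4 Fmo genes were called, where 31.4% of all genes were called.

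Fmo5, the Baeyer-Villiger member, had 669.2, 784.4 and 841.3 TPM as lowest, median and highest of 6 vehicle males on HFD, against 251.6, 318.4 and 447.6 TPM on LFD. The groups did not overlap, as was so for 13.4% of genes in the higher direction. The mean was 2.29 times as high on HFD, with a log2 change of 1.22 (SE 0.19, adjusted p = 2.53e-06). Here and below, a log2 change is a difference between group means of log2(TPM + 1).

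Fmo1, the broad amine and sulphide oxygenase, had 84.32, 111.7 and 144.7 TPM as lowest, median and highest of the vehicle males on HFD, against 53.66, 59.68 and 73.3 TPM on LFD. These groups also stood apart, with every HFD liver above every LFD liver. The log2 change was 0.85 (SE 0.10, adjusted p = 4.00e-09), and Fmo1 ranked 164th of all genes by p in this comparison.

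Fmo2, known from lung, had 4.962, 11.96 and 25.98 TPM on HFD, against 2.24, 5.121 and 11.17 TPM on LFD, again as lowest, median and highest of the vehicle males. The ranges overlapped, and 5 of 6 HFD livers lay above the LFD mean. The log2 change was 1.01 (SE 0.31, adjusted p = 0.0114). Without replicate 6 of the vehicle males on HFD, the highest of these livers, it was 0.77 with an adjusted p of 0.0568.

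Fmo4 had 4.165, 5.57 and 7.691 TPM on HFD, against 5.806, 8.688 and 13.39 TPM on LFD, and all 6 HFD livers lay below the LFD mean although the ranges overlapped. Its log2 change was -0.48 (SE 0.17, adjusted p = 0.0225). The call was lost in 3 of 12 fits that left out 1 library, with adjusted p = 0.0740 without replicate 3 on HFD, 0.0609 without replicate 1 on LFD and 0.0949 without replicate 5 on LFD. With only these 2 groups in the fit, neither Fmo2 (adjusted p = 0.0699) nor Fmo4 (adjusted p = 0.0766) was called.

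In mixture males, 2 of 4 Fmo genes were called between diets, Fmo1 and Fmo5, where 38.6% of all genes were called. Fmo1 had 99.29, 104.7 and 112.3 TPM on HFD, against 57.09, 72.54 and 90.49 TPM on LFD, with no overlap (12.9% of genes showed none in this direction) and a log2 change of 0.54 (SE 0.10, adjusted p = 1.76e-05). Fmo5 had 556.5, 614.2 and 808.9 TPM on HFD, against 222.6, 306.6 and 570.6 TPM on LFD. Only the highest LFD liver reached above the lowest HFD liver, and the log2 change was 0.93 (SE 0.19, adjusted p = 0.000133). Fmo2 averaged 12.7 TPM on HFD and 8.41 TPM on LFD (log2 change 0.64, adjusted p = 0.101). Fmo4 averaged 6.02 TPM on HFD and 7.97 TPM on LFD (log2 change -0.38, adjusted p = 0.0687). Left-out libraries changed both of these, and Fmo2 reached an adjusted p of 0.0405 without replicate 6 on LFD. That liver was the highest of its group for Fmo2 and held 92.55 TPM of adrenal cortex markers, against a group median of 3.717 TPM. The part of these in its Fmo2 level was not tested. Fmo4 reached 0.0290 without replicate 4 on LFD and 0.0499 without replicate 1 on HFD, while it had 0.276 without replicate 6 on HFD.

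The cohorts and the scaling bear on these values. Animals carry their own numbering on each diet in the library names, and no source says if the diets ran as 1 cohort, so diet and cohort cannot be told apart. Over all genes, the median log2 change of HFD against LFD was 0.15 in mixture males and 0.11 in vehicle males, and trimmed-mean scaling of the libraries brought these to -0.01 and -0.00. Of the genes called, 82.1% were higher on HFD in mixture males and 81.5% in vehicle males, and 49.2% and 53.2% after scaling. On that scale, Fmo5 rose by 0.74 in mixture males and 1.07 in vehicle males, and Fmo1 rose by 0.35 and 0.70, all 4 still called. Fmo2 had 0.46 (adjusted p = 0.290) in mixture males and 0.88 (adjusted p = 0.0404) in vehicle males. Fmo4 fell on that scale in both, by 0.55 (adjusted p = 0.00728) and 0.61 (adjusted p = 0.00358).

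In females, 0 of 4 Fmo genes were called between diets on either exposure by limma, where 19.2% of all genes were called with the mixture and 28.0% with vehicle. Without adjustment, 4960 genes had a p under 0.05 with the mixture and 6004 with vehicle, and Fmo5 with the mixture was the only Fmo gene among them. Fmo5 had 340.8, 403.7 and 502.3 TPM in mixture females on HFD, against 200.4, 331.5 and 433.8 TPM on LFD, a log2 change of 0.39 (95% interval 0.00 to 0.78, adjusted p = 0.154). With vehicle it had 418.4, 479 and 580.9 TPM on HFD, against 252.9, 357.7 and 556.2 TPM on LFD, a log2 change of 0.34 (-0.05 to 0.72, adjusted p = 0.199). The lowest of these female livers, at 200.4 TPM, is the one with muscle and adrenal transcripts.

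The other 3 genes gave intervals around 0 in females. Fmo1 averaged 160 TPM on HFD and 153.4 TPM on LFD with the mixture (log2 change 0.06, 95% interval -0.14 to 0.25), and 154.3 TPM on HFD and 143 TPM on LFD with vehicle (0.12, -0.08 to 0.31). Fmo2 averaged 39.53 TPM on HFD and 40.43 TPM on LFD with the mixture, and its interval (-0.66 to 0.61) was wide. For Fmo4 the log2 change was -0.24 (-0.57 to 0.10) with the mixture and -0.27 (-0.61 to 0.06) with vehicle.

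**Figure D3:**
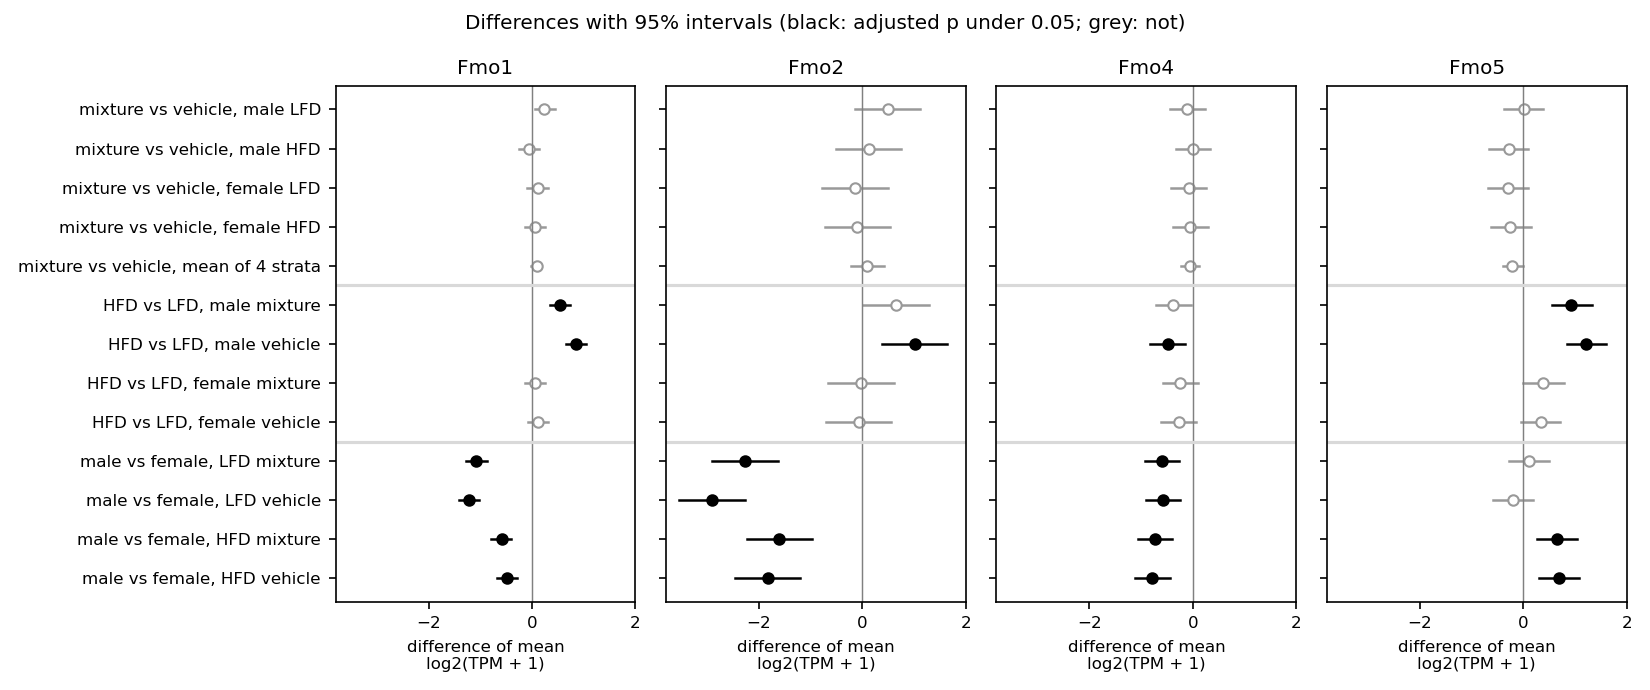
Difference of mean log2(TPM + 1) with its 95% interval for each Fmo gene in the comparisons named, black and filled where the adjusted p was under 0.05. The upper block (mixture against vehicle) holds no filled point, the middle block (HFD against LFD) holds 6 filled points, all in males, and the lower block (male against female) lies left of 0 for Fmo1, Fmo2 and Fmo4.

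Whether the diet change differed between the sexes was tested as a difference of log2 changes. In vehicle animals, 2 of 4 Fmo genes were called, where 18.2% of all genes were called. Fmo1 rose by 0.73 more in males than in females (SE 0.14, adjusted p = 0.000183), and Fmo5 by 0.89 more (SE 0.27, adjusted p = 0.0178). Fmo2 gave 1.08 (SE 0.44, adjusted p = 0.0841) and Fmo4 gave -0.21 (SE 0.23, adjusted p = 0.603). In mixture animals 1 of 4 was called, where 17.0% of all genes were called: Fmo1 by 0.48 more in males (SE 0.14, adjusted p = 0.0110). Fmo5 gave 0.54 there (95% interval -0.00 to 1.09, adjusted p = 0.165).

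These differences rested in part on how libraries were scaled. The median over all genes was 0.12 with vehicle and 0.15 with the mixture, and -0.01 and -0.00 after trimmed-mean scaling. Of the genes called, 81.0% with vehicle and 78.5% with the mixture had the larger change in males, and 50.9% and 44.1% after scaling. After scaling, Fmo1 was 0.57 in vehicle animals (adjusted p = 0.00756) and 0.30 in mixture animals (adjusted p = 0.203), and Fmo5 was 0.73 in vehicle animals (adjusted p = 0.0857).

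Males had less Fmo1, Fmo2 and Fmo4 than females on both diets and both exposures, and more Fmo5 on HFD. The fold was widest for Fmo2. The call counts were 3 of 4 with the mixture on LFD, where 21.5% of all genes were called, and 3 of 4 with vehicle on LFD (23.7%). On HFD they were 4 of 4 with the mixture (15.3%) and 4 of 4 with vehicle (11.8%).

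Markers of hepatocytes and of other liver cells also differed between the sexes. Of 7 hepatocyte markers, 3 were called lower in males and 0 higher on LFD with the mixture, and 3 lower and 1 higher with vehicle. On HFD the hepatocyte counts were 3 lower and 1 higher with the mixture, and 2 lower and 0 higher with vehicle. On LFD with the mixture, 7 of 9 stellate, 5 of 6 endothelial and 4 of 6 macrophage markers were called lower in males, where 4.92% of all genes were called higher and 16.6% lower. On LFD with vehicle, 2 of 9 stellate, 5 of 6 endothelial and 4 of 6 macrophage markers were called lower (6.61% of all genes higher and 17.1% lower). On HFD, 6 of 9 stellate markers with the mixture (9.73% and 5.56%) and 4 of 9 with vehicle (8.26% and 3.53%) were called higher in males. With the mixture on HFD, 1 of 6 endothelial markers was lower, and 1 of 6 macrophage markers was higher and 1 lower. With vehicle on HFD, 0 of 6 were called in either of these lists. The part of these markers in the Fmo sex differences was not tested.

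Fmo2 had 3.338, 7.738 and 14.56 TPM as lowest, median and highest of mixture males on LFD, against 27.74, 40.86 and 51.68 TPM in mixture females on LFD. With vehicle on LFD it had 2.24, 5.121 and 11.17 TPM in males, against 21.45, 47.45 and 63.88 TPM in females. Neither pair overlapped, and the male mean was 0.208 of the female mean with the mixture and 0.121 with vehicle. The log2 changes were -2.27 (SE 0.31, adjusted p = 3.42e-07) and -2.91 (SE 0.31, adjusted p = 6.95e-10).

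On HFD, Fmo2 in males was 0.322 of the female mean with the mixture and 0.294 with vehicle. It had 7.978, 11.24 and 20.33 TPM in mixture males, against 33.6, 35.79 and 50.01 TPM in mixture females. With vehicle it had 4.962, 11.96 and 25.98 TPM in males, against 27.96, 43.24 and 58.47 TPM in females. No male liver reached a female liver of the same diet and exposure. The log2 changes were -1.61 (adjusted p = 0.000210) and -1.83 (adjusted p = 4.39e-05). Markers of lung epithelium, the tissue FMO2 is known from, summed to between 0.605 and 5.57 TPM in every library.

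Fmo1 was also lower in males, and the gap was wider on LFD. With the mixture on LFD it had 57.09, 72.54 and 90.49 TPM in males, against 144.6, 150.3 and 166.2 TPM in females, and its log2 change was -1.08 (SE 0.10, adjusted p = 4.79e-12). Vehicle animals on LFD had 53.66, 59.68 and 73.3 TPM in males, against 116.8, 144.4 and 171.1 TPM in females, a log2 change of -1.21 (SE 0.10, adjusted p = 1.18e-13). The ranges stood well apart on LFD, and the male mean was 0.477 of the female mean with the mixture and 0.427 with vehicle.

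On HFD the log2 change of Fmo1 between the sexes was -0.59 with the mixture (adjusted p = 1.31e-05) and -0.48 with vehicle (adjusted p = 0.000450). Mixture males had 99.29, 104.7 and 112.3 TPM, against 144.9, 158.9 and 174.9 TPM in mixture females. Vehicle males had 84.32, 111.7 and 144.7 TPM, against 140.2, 151.5 and 167.1 TPM in vehicle females, and the highest male liver of these reached into the female range. The narrowing of this gap on HFD is the same quantity as the diet difference between the sexes tested above.

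Fmo4 was lower in males in all 4 comparisons, with log2 changes of -0.60 (LFD mixture, adjusted p = 0.00706), -0.58 (LFD vehicle, adjusted p = 0.00830), -0.74 (HFD mixture, adjusted p = 0.00124) and -0.79 (HFD vehicle, adjusted p = 0.000868), each with an SE of 0.17. Males had 5.515, 8.356 and 8.915 TPM with the mixture on LFD, against 9.498, 12.74 and 15.08 TPM in females, and the ranges did not overlap. With vehicle on LFD they had 5.806, 8.688 and 13.39 TPM, against 9.282, 13.22 and 18.4 TPM in females, with overlap. On HFD neither exposure gave overlap, with the highest male at 7.191 TPM (mixture) and 7.691 TPM (vehicle), against the lowest female at 8.121 TPM (mixture) and 8.136 TPM (vehicle). The LFD vehicle call was lost with only those 2 groups in the fit (adjusted p = 0.0614).

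Fmo5 was higher in males than in females on HFD, with 556.5, 614.2 and 808.9 TPM in mixture males, against 340.8, 403.7 and 502.3 TPM in mixture females. With vehicle it had 669.2, 784.4 and 841.3 TPM in males, against 418.4, 479 and 580.9 TPM in females. All HFD males lay above all HFD females of the same exposure, and the log2 changes were 0.65 (SE 0.19, adjusted p = 0.0146) and 0.69 (SE 0.19, adjusted p = 0.0127). On LFD the sexes overlapped, with a log2 change of 0.11 with the mixture (95% interval -0.28 to 0.50, adjusted p = 0.734) and -0.20 with vehicle (-0.59 to 0.19, adjusted p = 0.506).

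Counted by overlap, the male and female groups were separate for 3 Fmo genes lower in males with the mixture on LFD (6.51% of all genes), 2 with vehicle on LFD (6.84%), 3 with the mixture on HFD (3.32%) and 2 with vehicle on HFD (1.93%). Fmo5 was separate and higher in males on HFD, as were 3.53% of genes with the mixture and 4.00% with vehicle. Over all genes, the median log2 change between males and females on LFD was -0.11 with the mixture and -0.09 with vehicle, and near 0 after trimmed-mean scaling. Of the genes called, 22.9% (LFD mixture), 27.9% (LFD vehicle), 63.7% (HFD mixture) and 70.1% (HFD vehicle) were higher in males, and 55.4%, 52.2%, 49.0% and 56.6% after scaling, in the same order. After that scaling every sex call on the 4 genes held, with Fmo2 at -2.15 and -2.81 on LFD and Fmo1 at -0.94 and -1.10 (mixture, then vehicle).

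The mixture moved Cyp1a1 and Cyp1a2, the classical targets of dioxin-like compounds, in each stratum of sex and diet. Cyp1a2 averaged 3170 TPM with the mixture and 669 TPM with vehicle in LFD males, with log2 changes of 2.24 to 2.85 over the 4 strata. Cyp1a1 averaged 139 TPM with the mixture and 1.73 TPM with vehicle in LFD males, and 4.66 TPM with the mixture and 0.846 TPM with vehicle in HFD males.

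For the Fmo genes, 0 of 4 were called for mixture against vehicle by limma in any stratum. Few genes of any kind were: 0.0379% of all genes in LFD males, 0.0948% in HFD males, 0.0379% in LFD females and 0.0126% in HFD females. At an unadjusted p under 0.05 these counts were 830, 1486, 1503 and 670 genes, and Fmo1 in LFD males was the only Fmo gene among them.

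Fmo1 in LFD males had 57.09, 72.54 and 90.49 TPM with the mixture, against 53.66, 59.68 and 73.3 TPM with vehicle. The ranges overlapped, 4 of 6 mixture livers lay above the vehicle mean, and the log2 change was 0.24 (95% interval 0.05 to 0.44, adjusted p = 0.844). Its intervals were -0.25 to 0.14 in HFD males, -0.09 to 0.30 in LFD females and -0.14 to 0.25 in HFD females.

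Fmo5 averaged less with the mixture in 3 of 4 strata. It averaged 641.6 ± 91.2 TPM with the mixture and 776.5 ± 64.0 TPM with vehicle in HFD males, 320.6 ± 93.7 TPM with the mixture and 394.5 ± 118 TPM with vehicle in LFD females, and 408.2 ± 60.1 TPM with the mixture and 483.4 ± 63.8 TPM with vehicle in HFD females (SD, n = 6 each). In LFD males it averaged 354.3 ± 141 TPM with the mixture and 339.2 ± 83.5 TPM with vehicle. Taken as the mean of the 4 strata, where 0.0948% of all genes were called, the log2 change was -0.21 (SE 0.10, 95% interval -0.40 to -0.01, adjusted p = 0.391), which did not pass the threshold. No stratum passed alone, with -0.28 (-0.67 to 0.10), -0.30 (-0.69 to 0.09) and -0.25 (-0.63 to 0.14) in the first 3.

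Fmo2 and Fmo4 gave no called change with the mixture, and the precision differed between them. For Fmo2 the log2 change was 0.49 in LFD males (95% interval -0.15 to 1.12), 0.12 in HFD males (-0.51 to 0.75), -0.15 in LFD females (-0.78 to 0.49) and -0.10 in HFD females (-0.73 to 0.53). The intervals for Fmo2 were the widest of the 4 genes. For Fmo4 the estimates ran between -0.11 in LFD males and 0.00 in HFD males, each with an SE of 0.17.

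Differences of the mixture change between strata gave no Fmo call by limma. These were HFD minus LFD in males and in females (0.00632% of all genes called in each) and male minus female on LFD and on HFD (0.00% in each). The smallest p was for Fmo1 in males, where the mixture change on HFD minus that on LFD was -0.30 (95% interval -0.58 to -0.03, adjusted p = 0.620). At an unadjusted p under 0.05, 1158 genes stood in that comparison.

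Livers of the same group differed among themselves, most for Fmo2 in males. The coefficient of variation of Fmo2 was 35.9% in mixture and 60.9% in vehicle males on HFD, 55.5% in mixture and 57.2% in vehicle males on LFD, and 18.25% to 30.73% in the female groups. Fmo1 had 5.28% to 18.7% over the 8 groups. Fmo5 varied more on LFD, at 24.6% to 39.9%, than on HFD, at 8.24% to 14.7%, in every one of its 4 pairs of groups.

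After each group's mean was subtracted, livers with more Fmo2 than their group also had more Fmo1 and Fmo5. Over the 48 libraries, Fmo1 and Fmo2 gave Pearson's r = 0.70 and Spearman's rho = 0.65, with r = 0.62 without the 2 livers farthest from the median and a positive r in 8 of 8 groups. Fmo2 and Fmo5 gave r = 0.60 and rho = 0.60, positive in 7 of 8 groups. Fmo1 and Fmo5 gave r = 0.48 and rho = 0.56, positive in 8 of 8 groups. Fmo4 stood apart, with r of 0.02 with Fmo1, 0.01 with Fmo2 and -0.12 with Fmo5. These are descriptions over 48 livers that share a tissue, and within a library the TPM of all genes share 1 total.

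**Figure D4:**
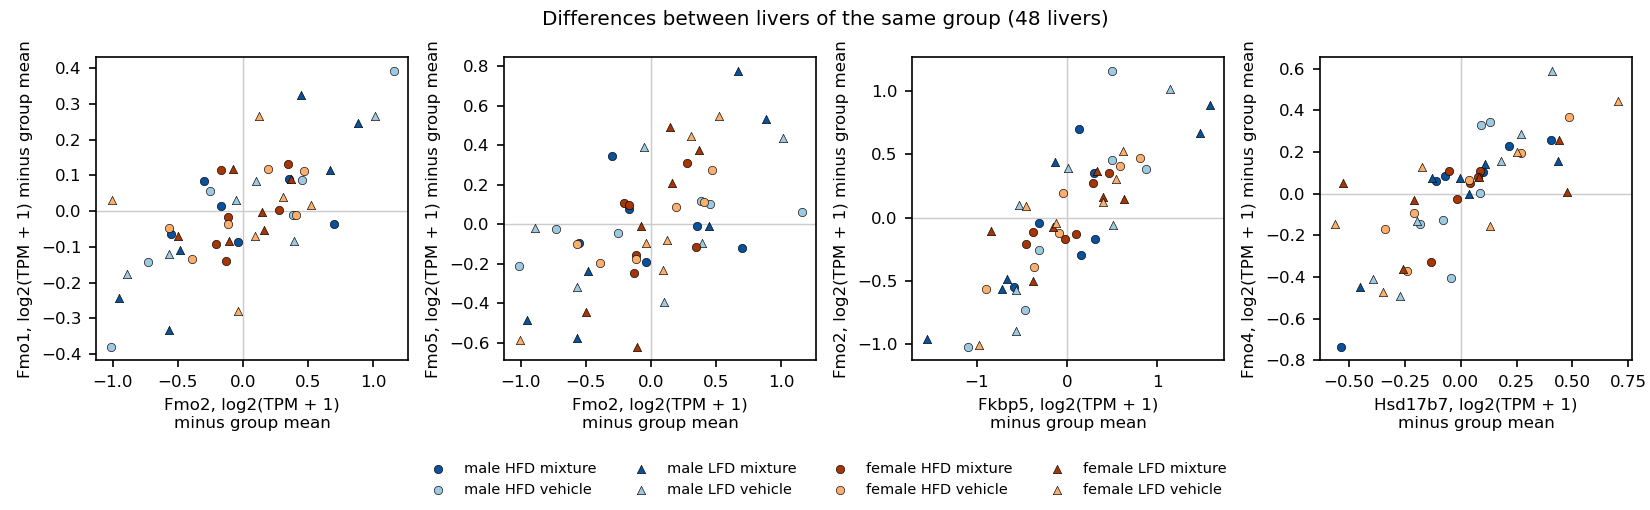
Deviation of each liver from its group's mean, in log2(TPM + 1), for 4 pairs of genes, with 1 point per liver and colours and shapes for the 8 groups. Fmo1 against Fmo2 (r = 0.70), Fmo5 against Fmo2 (r = 0.60), Fmo2 against Fkbp5 (r = 0.83) and Fmo4 against Hsd17b7 (r = 0.76) slope upward.

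The genes whose levels were most like each Fmo gene were found by Pearson's r of log2(TPM + 1), first over the 48 libraries with group differences left in. For Fmo1 these were Cyp2c39 (r = 0.961), Acot3 (0.960) and Cyp2b9 (0.959), and for Fmo2 Serpina3m (0.929), Cyp2a4 (0.928) and Acot3 (0.921). Cyp2c39, Cyp2b9 and Cyp2a4 encode cytochrome P450 enzymes and Acot3 a peroxisomal acyl-CoA thioesterase. For Fmo4 they were Nipal1 (0.859), Tm6sf2 (0.826) and Ugt1a5 (0.825), and for Fmo5 Gpt2 (0.831), Dopey2 (0.830) and Cdk18 (0.817). Gpt2 is the mitochondrial alanine aminotransferase, and Tm6sf2 is known from hepatic lipid export.

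With group means subtracted, the lists were different ones. Fmo2 followed Bnip3 (r = 0.849), Fkbp5 (0.831) and Aifm2 (0.821), and Fmo5 followed Rhbdd2 (0.826), Fkbp5 (0.818) and Slc37a4 (0.810). Fkbp5, a co-chaperone known as a glucocorticoid-responsive gene, stood in both. Since these genes were chosen by this same r, its size is a description, and within single groups the r of Fkbp5 ran between 0.53 and 0.96 with Fmo2 and between 0.05 and 0.97 with Fmo5. Slc37a4 is the glucose 6-phosphate transporter of the endoplasmic reticulum. Fmo1 followed Abhd6 (0.674), Slc16a7 (0.666) and Ivns1abp (0.631). Fmo4 followed Hsd17b7 (0.763), a sterol-synthesis enzyme, Acsl5 (0.762), a long-chain acyl-CoA synthetase, and Tmem135 (0.753), with r = 0.732, 0.703 and 0.696 without the 3 libraries that held muscle transcripts.

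The supply of FAD and NADPH, which all FMOs need, was followed through 12 listed genes of enzymes and riboflavin transporters, of which 11 were tested. Between diets in males, 4 of 11 were called higher and 0 lower with the mixture (31.7% and 6.92% of all genes), and 4 higher and 1 lower with vehicle (25.6% and 5.82%). Their median log2 change was 0.15 with the mixture and 0.06 with vehicle, beside 0.15 and 0.11 over all genes. Rfk, the riboflavin kinase that starts FAD synthesis, averaged 46.9 TPM in vehicle males on HFD and 30.3 TPM on LFD (log2 change 0.61, adjusted p = 1.33e-09). The gene called lower was G6pdx, the entry enzyme of the pentose phosphate path, which averaged 6.49 TPM in vehicle males on HFD and 29.8 TPM on LFD (log2 change -1.50, adjusted p = 0.00302).

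In females the same list gave 1 gene higher and 1 lower with the mixture (11.5% and 7.74% of all genes) and 1 higher and 4 lower with vehicle (14.4% and 13.5%). G6pdx averaged 5.46 TPM in vehicle females on HFD and 70.4 TPM on LFD (log2 change -3.42, adjusted p = 9.22e-09). Rfk was lower in males than in females on LFD, at 31.2 TPM in mixture males and 53.1 TPM in mixture females (log2 change -0.74, adjusted p = 3.64e-12). The Rfk diet change was 0.54 larger in males than in females with vehicle (adjusted p = 7.57e-05) and 0.57 larger with the mixture (adjusted p = 2.93e-05).

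Other non-P450 phase I enzymes, mostly oxidising and reducing ones but with the epoxide hydrolases Ephx1 and Ephx2, were followed as 25 genes. The list also held Por and Cyb5a, which pass electrons to P450 enzymes. Those called higher and lower on HFD were 13 and 2 in mixture males (31.7% and 6.92% of all genes), 15 and 1 in vehicle males (25.6% and 5.82%), 16 and 2 in mixture females (11.5% and 7.74%) and 16 and 3 in vehicle females (14.4% and 13.5%). In males most called genes of any kind were higher before scaling, as given above. Their median log2 change was 0.25, 0.41, 0.45 and 0.48 in that order, beside 0.15, 0.11, -0.00 and -0.01 over all genes. Ephx1, the microsomal epoxide hydrolase, averaged 690 TPM in vehicle males on HFD and 239 TPM on LFD (log2 change 1.55, adjusted p = 3.80e-13). In vehicle females Ephx1 averaged 515 TPM on HFD and 177 TPM on LFD (log2 change 1.55, adjusted p = 4.39e-13).

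Genes of taurine synthesis and use, the path that the hypotaurine reaction of FMO1 belongs to, were 8 listed and 7 tested. On HFD, 1 was called higher and 4 lower in mixture males (31.7% and 6.92% of all genes), 2 higher and 2 lower in vehicle males (25.6% and 5.82%), and 1 higher and 1 lower in females with the mixture (11.5% and 7.74%) and with vehicle (14.4% and 13.5%). Their median log2 change was -0.39, 0.07, -0.10 and -0.08 in that order, beside 0.15, 0.11, -0.00 and -0.01 over all genes. Cbs, the first enzyme of transsulphuration, averaged 207 TPM in mixture males on HFD and 367 TPM on LFD (log2 change -0.81, adjusted p = 3.04e-05). Ado, which makes hypotaurine from cysteamine, averaged 11.5 TPM in mixture males on HFD and 8.27 TPM on LFD (log2 change 0.43, adjusted p = 7.54e-05). With the mixture against vehicle, none of the flavin or taurine genes was called by limma in any stratum.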

How the data were processed

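Poly(A) RNA of 48 mouse livers was extracted with an RNeasy plus mini kit, per the labels' protocols. The submitters' processing notes name FastQC, Trimmomatic 0.36, STAR 2.5.2b, DESeq2 and GRCm38; the counter, annotation, strand setting and gene lengths were not stated. The authors deposited TPM values, and each column sums to 1000000, so depth is unknown and no count test was run. Between 13180 and 14713 genes reached 1 TPM per library, and the highest correlation between libraries was 0.9835. Groups came from the sample labels, 6 livers each. Nothing says more about how the 6 were raised, so the p-values reflect only how these livers vary, which may be in part technical.

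The 15820 of 49315 genes that reached 1 TPM in 6 or more libraries were fitted with limma 3.58.1 in R 4.3.3 on log2(TPM + 1), with an intensity trend and 1 mean for each of 8 groups (40 residual degrees of freedom). There were 19 comparisons, each adjusted by Benjamini-Hochberg over all genes tested at a threshold of 0.05. With a pseudocount of 1, changes of low genes are understated. The script was tested on simulated data. Sequences came from GENCODE M21 on GRCm38 and RefSeq on GRCm38.p6, and 1 sequence is not reported here. The text names the 4 Fmo genes, the first 3 genes by likeness to each, Cyp1a1 and Cyp1a2, and, of each listed pathway, the 3 genes with the smallest p or those on which a count turns. The members and lists were chosen with earlier results of these data known. Alternatives were trimmed-mean scaling (30% of log ratios and 5% of abundances), a pseudocount of 0.1, no filter, only the groups compared, no trend, a replicate block and leaving out 3 libraries with muscle transcripts. Leaving out single libraries, in the 8 comparisons with a Fmo call, was chosen after seeing the data.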

Additional observations from a re-analysis of the deposited data

Results flagged for a closer look

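Fmo4 had 3 livers far below the other 5 of their group, out of 32 sets of gene and group screened, where chance flags about 1 in 20. They were replicate 6 of the mixture males on HFD at 3.116 TPM, replicate 4 of the mixture males on LFD at 5.515 TPM and replicate 6 of the mixture females on HFD at 8.121 TPM. The first of these held 22767 TPM of skeletal muscle markers, against a group median of 69.66 TPM, and the part of this in its Fmo4 level was not tested.

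By the test of the difference itself, the change of HFD against LFD differed between males and females for Fmo1 and Fmo5. The differences were 0.48 (Fmo1, mixture), 0.73 (Fmo1, vehicle) and 0.89 (Fmo5, vehicle), each a larger change in males on the log2 scale. After trimmed-mean scaling, only Fmo1 with vehicle was still called.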

How the results depend on the processing

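Of 76 values (4 genes in 19 comparisons), 76 kept direction and call with no filter and with no trend, 75 with a pseudocount of 0.1, 72 with trimmed-mean scaling, 74 with a replicate block and 73 without the 3 libraries with muscle transcripts, as did 69 of 72 with only the groups compared, which cannot be run for the mean of the 4 strata. Leaving out single libraries kept 467 and changed the direction of 3 and the call of 10, of which 6 were gained and 4 lost. The cause of these changes was not tested.

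The number of Fmo genes called between diets in vehicle males was 2 with only those groups, and the number called for the diet difference between the sexes was 0 with the mixture and 1 with vehicle after scaling. The mixture change of Fmo4 in HFD males was -0.04 with scaling and -0.00 with a pseudocount of 0.1. Without the 3 libraries, Fmo2 in HFD males was -0.02 for the mixture, Fmo5 was -0.01 for males against females with the mixture on LFD, and the Fmo5 mixture change on HFD minus LFD in females was -0.05. With single libraries left out, that Fmo5 sex difference ran between -0.05 (without replicate 5 of the males) and 0.22, and was -0.01 without replicate 3 of the females. The Fmo4 diet difference between the sexes with the mixture ran between -0.23 and 0.01 (without replicate 6 of the HFD males). Fmo2 reached a call for the diet difference with vehicle in 3 of 24 such fits, with adjusted p = 0.0357 without replicate 1 of the HFD males, 0.0352 without replicate 4 of the LFD males and 0.0351 without replicate 1 of the LFD females.

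Same-numbered libraries had correlations of deviations between -0.21 and 0.44, and at most 4 of 6 matched best with their own number. No comparison had every pair over 0.1, and the livers were not paired in the main fit. The mean r of same-numbered libraries ran from -0.06 (males against females, LFD vehicle) to 0.16 (mixture against vehicle, LFD females). Other numbers gave 0.01 and -0.03 there. These values do not show whether same-numbered livers share an effect. The number comes from the sample titles, and no label ties same-numbered livers of different groups to each other. With the replicate block, Fmo2 was called between diets in mixture males (0.64, adjusted p = 0.0254) and for the diet difference with vehicle (1.08, adjusted p = 0.0178).

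Over all genes, mixture calls were few and moved with the setting. They were 6 in LFD males and 3 with only the groups compared; 15 in HFD males, 1 with only the groups and 47 without the 3 libraries; 6 in LFD females and 3 with scaling; and 2 in HFD females and 4 without the 3 libraries. The mean of the strata gave 15, and 8 with scaling. The mixture change on HFD minus LFD in males gave 1, with 2 unfiltered, 4 with the replicate block and 12 without the 3 libraries.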

Other observations

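Cyb5a, the electron carrier cytochrome b5, was the 1 of 25 genes in the phase I list called higher with the mixture on LFD in each sex. Of all genes, 0.0379% were called in LFD males and 0.0379% in LFD females. Cyb5a averaged 828 TPM with the mixture and 585 TPM with vehicle in LFD males (log2 change 0.50, SE 0.09, adjusted p = 0.00279), and 732 TPM with the mixture and 523 TPM with vehicle in LFD females (0.48, SE 0.09, adjusted p = 0.00802). All 6 mixture livers lay above all 6 vehicle livers in both, and the share of all genes that did so is not given here. On HFD, Cyb5a gave 0.21 in males (adjusted p = 0.438) and 0.18 in females (adjusted p = 1.00). The mixture change on HFD minus that on LFD was -0.29 in males (adjusted p = 0.560) and -0.30 in females (adjusted p = 1.00).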
